A study of Mus musculus with 12 samples.

Results

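The synaptic vesicle and release machinery was taken as 34 genes of the SNARE, complexin, synaptotagmin, vesicle protein and active zone families, chosen by name from the 55416 genes counted. All 34 were found, and all 34 passed the filter on low counts that left 16637 genes for testing. They were measured by bulk RNA-seq in the trigeminal ganglion, which holds the sensory neurons of the face and head, in 6 inducible Prdm12 knockout (iKO) and 6 control libraries from adult C57Bl6 mice, 1 month after injection. Prdm12 is a chromatin regulator needed for the development of pain-sensing neurons, and the design asks what its loss changes in the adult ganglion. Every iKO animal carried Rosa26 CreERT2 and Prdm12 Fl/Fl and was given tamoxifen, and iKO 1, 2 and 3 were female and iKO 4, 5 and 6 male. Control 1 (female) carried Rosa26 CreERT2 with Fl/+, controls 2 (female) and 3 (male) carried Fl/+ without Cre, and control 4 (male) carried Rosa26 CreERT2 with no floxed allele. These 4 controls were given tamoxifen. Controls 5 and 6 (both male) had the iKO genotype, Rosa26 CreERT2 with Fl/Fl, and were given corn oil. The Rosa26 locus is active in nearly all cell types, so the recombinase was not limited to neurons. The labels do not say which exons are floxed or whether ganglia of several animals were pooled, so p-values measure the spread between libraries.

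Transmitter release follows a fixed order of steps. The vesicle SNARE synaptobrevin (Vamp) pairs with syntaxin (Stx) and Snap25 on the cell membrane, complexins hold and assist the assembled complex, and synaptotagmins (Syt) sense calcium and trigger fusion. RIM (Rims), Munc13 (Unc13), CAPS (Cadps), bassoon (Bsn) and piccolo (Pclo) prepare vesicles at the active zone, synapsins (Syn) cluster them, Rab3 proteins guide them to the membrane, and Nsf takes spent SNARE complexes apart. Trigeminal sensory neurons make these proteins in the ganglion and use them mostly at terminals in the brainstem and skin.

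The libraries held 13207526 to 24178970 counts. Prdm12 measured 106 ± 28.4 CPM (counts scaled to library size after TMM; SD, n = 6) in controls, from 57 to 133, and 16.8 ± 1.97 CPM in iKO, from 13.2 to 19.2. Its log2 fold change was -2.64 ± 0.185 (standard error, SE), with an edgeR adjusted p of 2.7e-05. Markers of neighbouring tissue varied between libraries in both groups. The summed level of 7 pituitary markers was 2806 CPM in iKO 3 and at most 687.9 CPM elsewhere, with Lhb at 0 in every library. The sum of 6 oligodendrocyte and astrocyte markers ran from 110 to 2241 CPM in controls, highest in control 6, and from 122.6 to 743 CPM in iKO, and that of 7 skeletal muscle markers was highest in iKO 5 at 782.4 CPM. The 13 neuronal markers, the labelled tissue's own, summed to between 12080 and 15150 CPM in controls and between 12480 and 15410 CPM in iKO. Libraries also differed by base composition: the most GC-rich quintile of genes stood at -0.225 against the most GC-poor one, in log2 units, in control 1 and -0.443 in iKO 2, and between -0.0836 and 0.203 in the other libraries.

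The release machinery as a group stayed near its control level. Of the 34 genes, 1 (Cplx2) was called lower and 0 were called higher, a call being an edgeR adjusted p under 0.05 over all genes tested. Over all genes 0.379% were called, 0.174% higher and 0.204% lower. The unadjusted p was under 0.05 for 5 of the 34 genes, 14.7%, against 10.9% of all genes. The median log2 fold change, iKO against control, was -0.0264 for the 34 genes and 0.00114 for all genes, with 14 of the 34 positive and 20 negative. For 32 of the 34, the 95% interval of the log2 fold change lay within 0.5 of 0 (94.1%, against 73% of all genes). The exceptions were Cplx2 and the barely detected Doc2b. These shares are not matched for level, on which the width of an interval also depends. Of the 34 genes, 32 had at least 10 CPM, against 10516 of all genes, with 16637 tested. The share among genes of similar level was not measured, so the contrast does not show that release genes were more stable. The summed level of the 34 genes ran from 11370 CPM in control 6 to 13570 CPM in control 3, and from 11640 CPM in iKO 5 to 13360 CPM in iKO 4, so the groups overlapped.

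**Figure D1:**
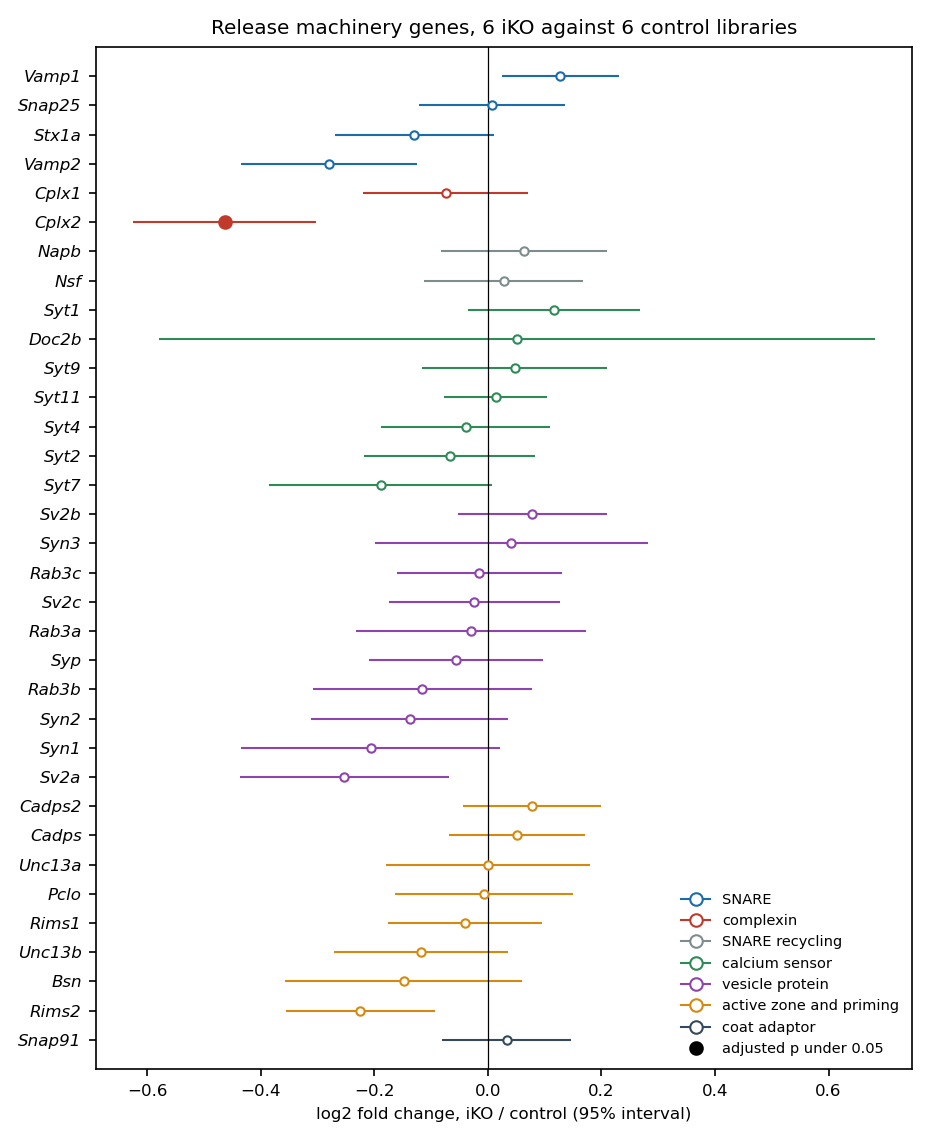
Log2 fold change (iKO against control, x axis) of each of the 34 genes (y axis) in the fit of all 12 libraries, with bars for the 95% confidence interval, colours for the role and a filled point for a call. Cplx2, at -0.46, is the gene called, and most intervals include 0.

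Within the ganglion the genes spanned a wide range of levels. Levels were divided by the kilobases of all annotated exons of a gene together, which can exceed the length of the RNA made. The order of genes therefore depends on that annotated length. On this scale the complexin Cplx1 was highest in controls at 511 ± 52.4 CPM per kb (SD, n = 6), above 99.8% of the genes tested. The membrane SNARE Snap25 followed at 262 ± 19.6 CPM per kb. Without division by length Snap25 was the higher, at 1781 CPM in controls against 1120 CPM for Cplx1 (6.79 and 2.19 kb of exon). The synaptotagmin Syt11, a family member that does not bind calcium, measured 243 ± 5.96 CPM per kb, and the difference between Snap25 and Syt11 was within the SD of Snap25 but not that of Syt11. Rab3a stood next at 154 ± 15 CPM per kb. Between 81.2 and 93.8 CPM per kb lay Syn1, Vamp1, Sv2c, Vamp2 and Napb, neighbours that were close to one another relative to their spread. At the other end, Syn3 measured 0.536 CPM per kb and the calcium sensor Doc2b 0.245 CPM per kb, above only 3.37% of the genes tested. Within families, Cplx1 stood above Cplx2 (55.9 CPM per kb), Syt2 (60.1) above Syt1 (27.6), Rims1 (11.8) above Rims2 (5.72) and Unc13a (12.6) above Unc13b (2.03), all on the scale of CPM per kb in controls.

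**Figure D2:**
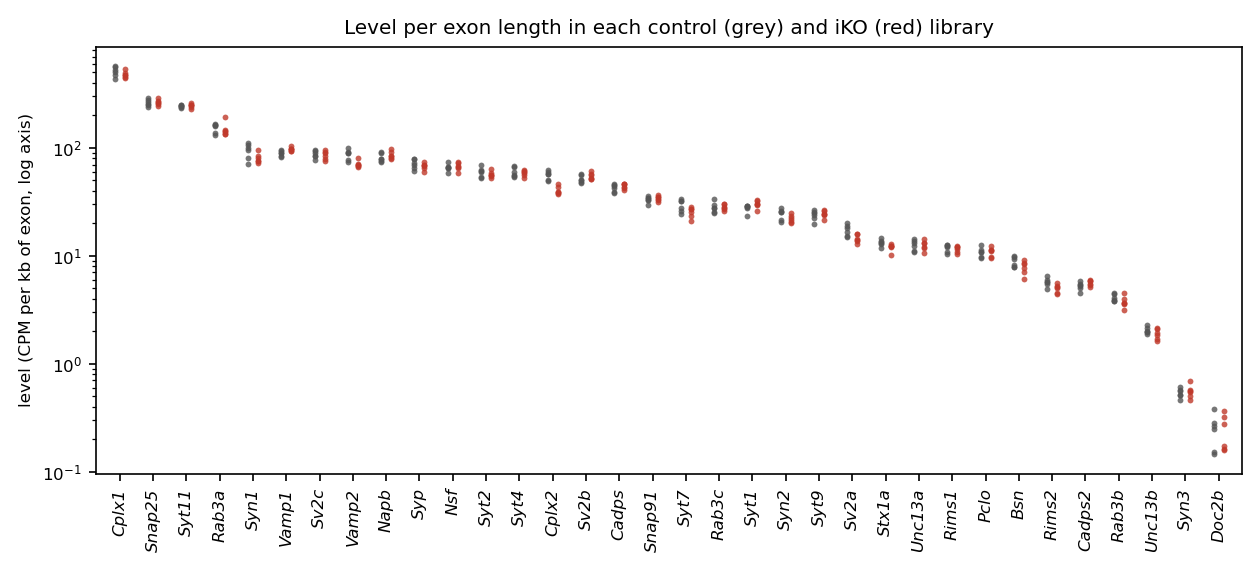
Level of each of the 34 genes in CPM per kb of exon (y axis, log scale), with a point for each control (grey) and iKO (red) library. Cplx1 is highest at 511 CPM per kb in controls and Doc2b lowest at 0.245, and the groups lie together for nearly every gene.

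Cplx2 (ENSMUSG00000025867), which encodes a complexin that binds the assembled SNARE complex, was the gene called lower. In controls 1 to 6 it measured 247, 292, 308, 284, 280 and 243 CPM. In iKO 1 to 6 it measured 191, 183, 228, 216, 191 and 190 CPM. Every iKO library lay below every control library. Cplx2 was the 1 of the 34 genes whose groups did not overlap, which 1.2% of all genes showed, 0.523% with iKO lower and 0.679% with iKO higher. The group means were 276 ± 25.6 CPM in controls and 200 ± 17.8 CPM in iKO (SD, n = 6 each), a decrease of 27.5% (log2 fold change -0.46 ± 0.0743, SE). The 95% interval was -0.62 to -0.30, and the edgeR adjusted p was 0.0191. Vamp2, Rims2 and Sv2a, which were not called, also had wholly negative 95% intervals, and that of Vamp1 was wholly positive. These intervals are not adjusted for the number of genes.

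The change in Cplx2 had a similar size against both kinds of control. In replicates 1 to 4, where every animal was given tamoxifen, the log2 fold change was -0.44 (edgeR adjusted p = 0.107). In replicates 5 and 6, where both groups were male Rosa26 CreERT2 Fl/Fl and differed in tamoxifen against corn oil, it was -0.46 (edgeR adjusted p = 0.454). Neither smaller comparison was called. Of all genes, 0.114% were called in the former (0.0541% higher and 0.0601% lower) and 0.00601% in the latter. The call of Cplx2 over all libraries was lost without control 2 (edgeR adjusted p = 0.0829), control 5 (0.0563), iKO 1 (0.0545), iKO 5 (0.0591) or iKO 6 (0.0642), with log2 fold changes from -0.46 to -0.43. It held without control 6, iKO 3 and iKO 5, the libraries with the most glial, pituitary and muscle marker signal (-0.52, edgeR adjusted p = 0.0129), and with each library corrected for GC content (-0.44, edgeR adjusted p = 0.00357). Both settings were chosen after the data were seen. In bulk tissue, fewer cells that express Cplx2 and less Cplx2 RNA per cell cannot be told apart.

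Brain neurons are rich in Cplx2, and their markers are given beside it. The 6 markers summed to between 279.5 and 362.3 CPM in controls and between 252.7 and 321.4 CPM in iKO, with 0 of the 4 tested called and a median log2 fold change of -0.324. Most of that sum was Slc17a7 (184 CPM in controls), also one of the listed transmitter transporters, so the sum does not measure brain tissue alone. Camk2a made up most of the rest, and bulk libraries do not show which cells its RNA came from. Slc17a7 had a log2 fold change of 0.01, and Cbln1 had -0.33. The kinase gene Camk2a measured 129 CPM on average in controls and 103 in iKO, with no overlap between groups (log2 fold change -0.32, edgeR adjusted p = 0.13), and Cbln3 averaged 2.34 and 0.998 CPM. The defining forebrain and cerebellar genes Neurod6 and Gabra6 averaged 0.176 and 0.764 CPM in controls against 0.0615 and 0.269 CPM in iKO, beside a limit of 0.124 to 0.227 CPM that a count of 0 allows. The part of these markers in the Cplx2 difference was not tested.

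The paralog Cplx1 was not called. It measured 1027, 1110, 1243, 1231, 1154 and 952 CPM in controls 1 to 6. In iKO 1 to 6 the values were 1029, 978, 1036, 1180, 1000 and 1085 CPM. The groups overlapped, with means of 1120 ± 115 and 1051 ± 72.8 CPM and a log2 fold change of -0.07 (95% interval -0.22 to 0.07). The ratio of the counts of the paralogs within a library does not depend on how libraries are scaled, and it was tested for 12 pairs of paralogs with an exact two-sided permutation test over the 924 assignments of 6 and 6 libraries. Only the change of such a ratio is read, since counts are not corrected for gene length.

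The counts of Cplx1 over Cplx2 were 4.15, 3.8, 4.04, 4.33, 4.13 and 3.92 in controls 1 to 6. In iKO 1 to 6 they were 5.39, 5.35, 4.55, 5.47, 5.25 and 5.72. All 6 iKO ratios lay above all 6 control ratios. The mean went from 4.06 to 5.27, a difference of 0.38 on the log2 scale, with an exact permutation p of 0.00216, the smallest that 6 against 6 libraries can give, and an adjusted p of 0.013 over the 12 pairs. The difference was 0.345 in replicates 1 to 4 (exact permutation p = 0.0286, the smallest that 4 against 4 can give) and 0.445 in replicates 5 and 6, where 2 against 2 libraries can give no p under 0.333.

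The start regions of the complexin pair are shown because Cplx2 was called lower and Cplx1 was not called. Each window runs from 250 bases before to 50 bases after the annotated start (RefSeq, GRCm38.p6, written along the gene's own strand), and 27 of the 34 genes had one or more windows in that table. Cplx1 lies on the minus strand at chr5:108549978-108550277 and Cplx2 on the plus strand at chr13:54302306-54302605. Capitals mark matches to GGGCGG, the core of a GC box, or CAGCTG, an E-box, on either strand.
Cplx1: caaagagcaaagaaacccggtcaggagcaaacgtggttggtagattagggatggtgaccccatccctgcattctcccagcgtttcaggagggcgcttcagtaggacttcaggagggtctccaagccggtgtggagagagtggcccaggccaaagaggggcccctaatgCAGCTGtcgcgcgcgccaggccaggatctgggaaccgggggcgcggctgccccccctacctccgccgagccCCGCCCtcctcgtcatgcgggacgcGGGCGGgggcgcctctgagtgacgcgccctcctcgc
Cplx2: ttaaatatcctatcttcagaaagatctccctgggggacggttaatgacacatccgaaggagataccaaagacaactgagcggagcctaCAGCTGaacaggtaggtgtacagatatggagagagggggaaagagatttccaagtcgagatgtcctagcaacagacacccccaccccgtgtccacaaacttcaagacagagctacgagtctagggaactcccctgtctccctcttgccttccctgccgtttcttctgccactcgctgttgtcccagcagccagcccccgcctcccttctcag
The Cplx1 window was 67% G and C and held 24 CpG dinucleotides, more than 80% of the 32851 windows of all genes. The Cplx2 window was 53.3% G and C and held 9. GGGCGG or its reverse complement occurred 2 times in the Cplx1 window and 0 times in that of Cplx2, and CAGCTG occurred 1 time in each. Of all windows, 35.7% held GGGCGG and 16.3% held CAGCTG, against 22 (64.7%) and 8 (23.5%) of the 34 windows of these release genes. A match is a description of the letters only.

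**Figure D3:**
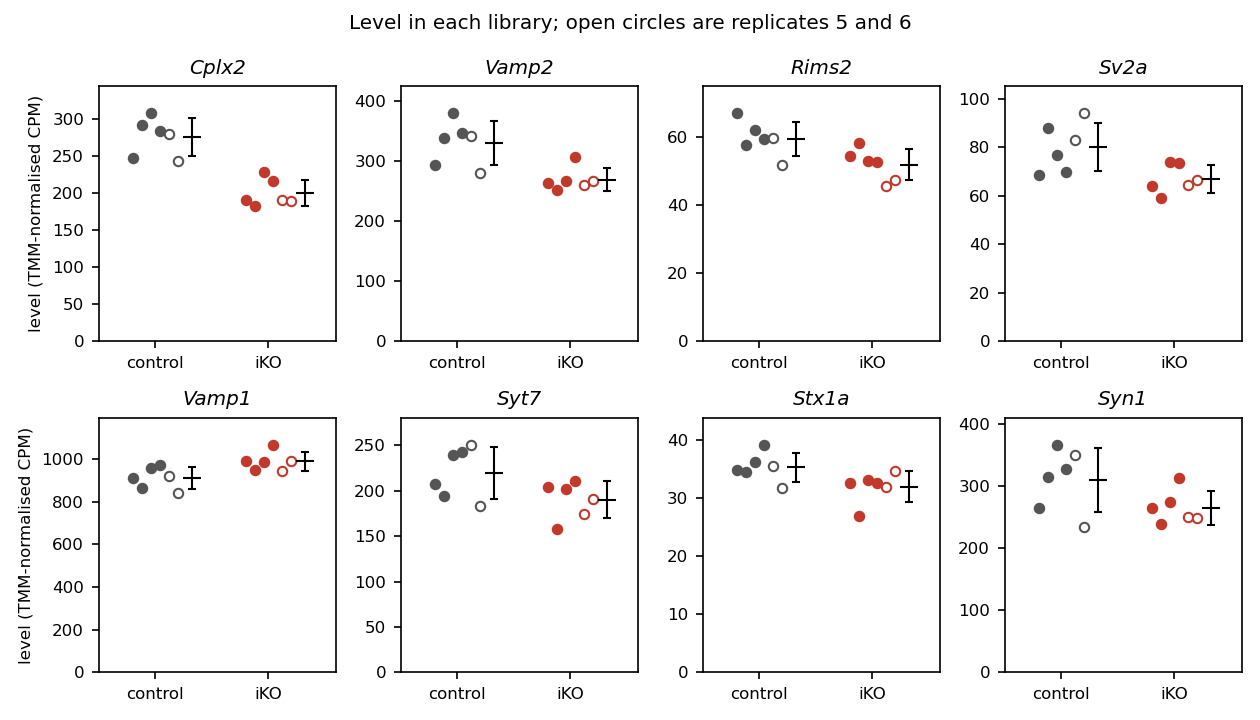
Level in TMM-normalised CPM (y axis from 0) of the 8 genes with the smallest unadjusted p, in control and iKO. Points are libraries (open, replicates 5 and 6) and bars the mean ± SD. The iKO points of Cplx2 (183 to 228 CPM) lie below all control points (243 to 308 CPM), and those of Vamp2 and Rims2 overlap the controls.

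Among the SNAREs, the vesicle SNARE Vamp2 had the second smallest unadjusted p of the 34 genes. It measured 293, 338, 380, 347, 341 and 281 CPM in controls 1 to 6. Values in iKO 1 to 6 were 264, 251, 267, 306, 260 and 267 CPM. The groups overlapped only through iKO 4, which lay above controls 1 and 6. The means were 330 ± 36.6 and 269 ± 19.1 CPM (SD, n = 6 each), and the difference missed the threshold (log2 fold change -0.28, SE 0.0715, edgeR adjusted p = 0.125). It passed with DESeq2 (adjusted p = 0.0114), without control 6 (edgeR adjusted p = 0.0347) and with 1 surrogate variable in the edgeR fit (adjusted p = 0.0197).

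Its paralog Vamp1, the form prominent in hindbrain and spinal cord, was not called. Controls 1 to 6 measured 909, 862, 955, 971, 919 and 839 CPM. The iKO libraries measured 992, 950, 984, 1066, 944 and 992 CPM. The means were 909 ± 51.4 and 988 ± 43.7 CPM, and the log2 fold change was 0.13 with an SE of 0.0472 (edgeR adjusted p = 0.329). The groups overlapped.

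The balance of the vesicle SNAREs moved toward Vamp1 in the knockout. Counts of Vamp1 over Vamp2 were 3.10, 2.55, 2.52, 2.8, 2.69 and 2.99 in controls 1 to 6. Those of iKO 1 to 6 were 3.76, 3.78, 3.69, 3.48, 3.64 and 3.72. The lowest iKO ratio lay above the highest control ratio, and the 6 iKO values were close together. The mean went from 2.76 to 3.68, a difference of 0.41 on the log2 scale (exact permutation p = 0.00216, adjusted p = 0.013 over 12 pairs). It was 0.428 in replicates 1 to 4 (exact permutation p = 0.0286) and 0.375 in replicates 5 and 6. With GC correction it was 0.368 (exact permutation test, adjusted p = 0.013).

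The membrane SNAREs were not called. The syntaxin Stx1a measured 34.8, 34.4, 36.2, 39.1, 35.4 and 31.6 CPM in controls 1 to 6. The iKO libraries, 1 to 6, had 32.6, 26.9, 33.2, 32.6, 32.0 and 34.6 CPM. Its means of 35.3 ± 2.45 and 32.0 ± 2.62 CPM overlapped in range (log2 fold change -0.13, edgeR adjusted p = 0.505). Snap25 averaged 1781 ± 133 CPM in control and 1792 ± 104 CPM in iKO libraries, with a log2 fold change of 0.01 and a 95% interval of -0.12 to 0.14. The recycling ATPase Nsf (549 ± 38.7 against 562 ± 46.0 CPM) and its adaptor Napb (573 ± 51.8 against 605 ± 51.2 CPM) were not called.

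Of the synaptotagmins and Doc2b, most of them calcium sensors, 0 of 7 were called. Syt1 and Syt2, the fast sensors of synchronous release, had fold changes of opposite sign. Syt1 measured 238, 228, 240, 241, 241 and 194 CPM in controls 1 to 6. It measured 270, 250, 245, 276, 215 and 250 CPM in iKO 1 to 6 (means 230 ± 18.6 and 251 ± 21.5 CPM, log2 fold change 0.12, edgeR adjusted p = 0.589). Its highest control, 241 CPM, lay below 5 of the 6 iKO libraries. Syt2 measured 410, 459, 535, 470, 476 and 404 CPM in controls 1 to 6. It measured 430, 445, 420, 486, 403 and 424 CPM in iKO 1 to 6 (means 459 ± 48.1 and 435 ± 28.9 CPM, log2 fold change -0.07, edgeR adjusted p = 0.774), and the groups overlapped.

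The count ratio of Syt1 over Syt2 passed the test with overlapping groups. It was 0.580, 0.498, 0.448, 0.513, 0.507 and 0.479 in controls 1 to 6. In iKO 1 to 6 it was 0.627, 0.560, 0.582, 0.568, 0.535 and 0.589. Control 1 lay within the iKO range and the other controls below it. The mean went from 0.503 to 0.576, a difference of 0.20 on the log2 scale (exact permutation p = 0.00866, adjusted p = 0.026 over 12 pairs). With GC correction, chosen after the data were seen, it was 0.164 (exact permutation test, adjusted p = 0.0649). It also missed the threshold, with adjusted exact permutation p from 0.0519 to 0.0584, without control 2, 3, 4, 5 or 6 or iKO 1, 3 or 6.

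The slower, high-affinity sensor Syt7 measured 208, 194, 239, 243, 251 and 183 CPM in controls 1 to 6. Values in iKO 1 to 6 were 204, 158, 202, 211, 174 and 191 CPM. Its groups overlapped (220 ± 28.2 against 190 ± 20.4 CPM, log2 fold change -0.19, edgeR adjusted p = 0.489). The other genes of this group were not called. Syt4, an atypical family member linked to dense-core vesicles, had 232 ± 24.3 CPM in controls against 227 ± 13.6 in iKO. Syt11 measured 1266 ± 31.0 and 1277 ± 59.6 CPM, and its log2 fold change of 0.01 had a 95% interval of -0.08 to 0.10. Syt9 measured 94.1 ± 10 and 97.3 ± 6.95 CPM. Doc2b, a high-affinity sensor, had only 9 to 33 counts per library (1.07 ± 0.388 against 1.06 ± 0.394 CPM), too few to show a moderate change: its 95% interval ran from -0.58 to 0.68.

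Of the 8 active zone and priming genes 0 were called, and RIM2 (Rims2) had the smallest p. This scaffold tethers calcium channels and vesicles at release sites. Rims2 measured 66.9, 57.5, 61.9, 59.2, 59.5 and 51.6 CPM in controls 1 to 6. The iKO libraries, 1 to 6, had 54.3, 58.3, 52.8, 52.6, 45.5 and 47.4 CPM. Controls 2 and 6 lay inside the iKO range. The fold change, -0.22 in log2 units with an SE of 0.0603 (means 59.4 ± 5.04 and 51.8 ± 4.67 CPM) missed the threshold with edgeR (adjusted p = 0.147), and passed with DESeq2 (adjusted p = 0.0479) and with 1 surrogate variable (edgeR adjusted p = 0.01). Rims1 measured 91.1, 79.4, 92.3, 89.3, 93.2 and 77.2 CPM in controls 1 to 6. Values in iKO 1 to 6 were 90.2, 89.3, 85.8, 89.0, 76.6 and 80.0 CPM (means 87.1 ± 6.97 and 85.1 ± 5.62 CPM, log2 fold change -0.04, edgeR adjusted p = 0.861), so its groups overlapped.

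The count ratio of Rims1 over Rims2 was higher in iKO, with a small overlap of groups. It was 1.36, 1.38, 1.49, 1.51, 1.57 and 1.5 in controls 1 to 6. In iKO 1 to 6 it was 1.66, 1.53, 1.62, 1.69, 1.68 and 1.69. Control 5, at 1.57, lay above iKO 2 and below the other iKO libraries. The mean went from 1.47 to 1.65, a difference of 0.17 on the log2 scale (exact permutation p = 0.00433, adjusted p = 0.0173 over 12 pairs). Without control 6, iKO 3 and iKO 5, the difference was 0.169 and the adjusted exact permutation p 0.0952.

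The remaining priming genes were not called. The Munc13 genes Unc13a (159 ± 17.8 against 157 ± 15.9 CPM) and Unc13b (46.1 ± 3.31 against 42.9 ± 4.61 CPM) had log2 fold changes of 0.00 and -0.12. The scaffolds bassoon, Bsn (140 ± 15.3 against 124 ± 17.8 CPM), and piccolo, Pclo (242 ± 24.4 against 245 ± 24 CPM), had values of -0.15 and -0.01. CAPS genes, which prime dense-core vesicles, were within 0.08 of 0 on that scale: Cadps measured 641 ± 46.1 and 667 ± 33.4 CPM, and Cadps2 50.2 ± 4.25 and 53.7 ± 3.29 CPM.

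Of the vesicle proteins and Rab3 genes, 0 of 10 were called. The transporter-like glycoprotein Sv2a measured 68.6, 87.9, 76.9, 70.0, 83.1 and 94.1 CPM in controls 1 to 6. The iKO libraries, 1 to 6, had 64.0, 59.0, 74.0, 73.6, 64.4 and 66.4 CPM. Controls 2, 3, 5 and 6 lay above all iKO libraries, and controls 1 and 4 inside the iKO range. The fold change was -0.25 in log2 units with an SE of 0.0852 (means 80.1 ± 10.1 and 66.9 ± 5.86 CPM, edgeR adjusted p = 0.277). The controls highest in Sv2a (6, 2 and 5) were also the highest in the summed oligodendrocyte and astrocyte markers, at 2241, 1234 and 898.7 CPM, and the part of those markers was not tested.

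Synapsin 1 (Syn1) measured 264, 315, 367, 327, 351 and 234 CPM in controls 1 to 6. Values in iKO 1 to 6 were 264, 239, 274, 314, 250 and 249 CPM. The control range enclosed the iKO range (310 ± 51.1 against 265 ± 27.0 CPM, log2 fold change -0.21, edgeR adjusted p = 0.518). Syn2 averaged 172 ± 19.6 CPM against 156 ± 12.6 CPM. Syn3 measured 6.59 ± 0.634 and 6.80 ± 0.927 CPM. The kit did not mark strand, and 14.1% of the exon length of Syn3 overlaps that of Timp3 on the opposite strand in the annotation used for lengths, so reads of Timp3 cannot be told apart there. Synaptophysin, Syp, measured 370 ± 37.8 and 352 ± 26.7 CPM. Its exons overlap those of Gm14703 over 16.8% of their length, and those of Syt4 overlap Gm26658 over 14.5%. Gm14703 and Gm26658 averaged only 10.6 and 6.3 counts per library, against 3847.6 for Timp3.

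The larger Sv2 genes were close between groups. Sv2b stood at 431 ± 34.6 CPM in controls against 459 ± 32.5 CPM in iKO, and Sv2c at 844 ± 68.3 and 833 ± 70.7 CPM. The ratio of Sv2a over Sv2b went from 0.185 to 0.146, a log2 difference of -0.35 that missed the threshold over the pairs (exact permutation p = 0.0411, adjusted p = 0.0987). Rab3a measured 342 ± 33.4 and 332 ± 51.1 CPM, and iKO 4 alone reached 434 CPM. Rab3b measured 14.4 ± 1.05 and 13.3 ± 1.63 CPM. Rab3c measured 338 ± 36.0 and 338 ± 21.9 CPM. The endocytic adaptor Snap91, which helps vesicle proteins into clathrin coats, measured 304 ± 18.9 and 311 ± 16.0 CPM.

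**Figure D4:**
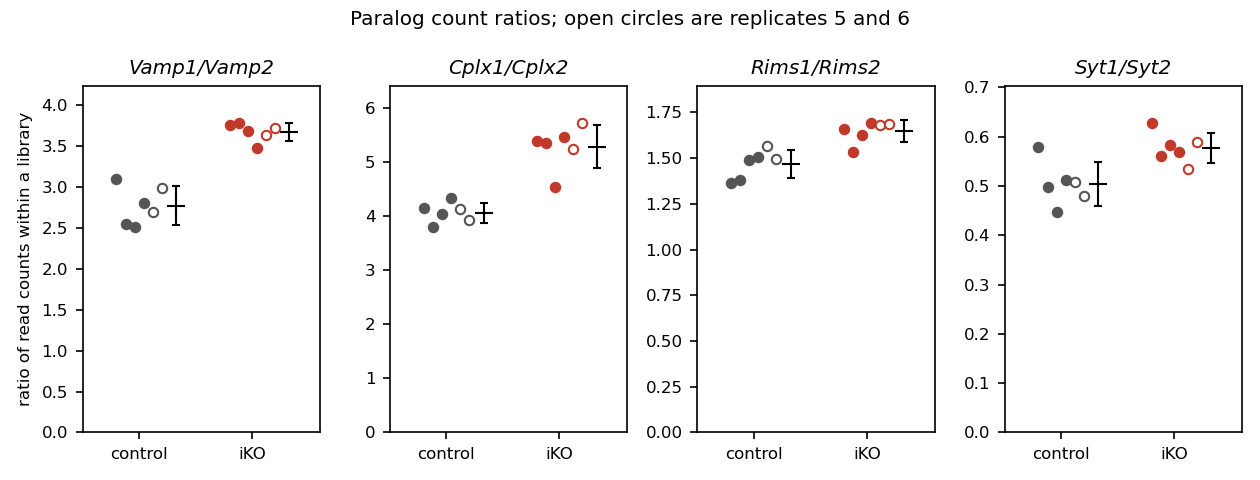
Ratio of the read counts of 2 paralogs within each library (y axis from 0) for the 4 pairs past the threshold, in control and iKO. Points are libraries (open, replicates 5 and 6) and bars the mean ± SD. Vamp1/Vamp2 and Cplx1/Cplx2 do not overlap between groups, and Rims1/Rims2 and Syt1/Syt2 are higher in iKO with overlap.

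Over the 12 paralog pairs, 4 (33.3%) passed the exact permutation test at an adjusted p under 0.05, and 2 (16.7%) had groups that did not overlap. The shares among other pairs of genes were not measured, and the adjustment covered 12 tests against 16637 for single genes. These shares are therefore not comparable with those of single genes. The 4 pairs were of the vesicle SNAREs, the complexins, RIM and the fast synaptotagmins. Of the 8 genes in these pairs, Cplx2 was the 1 called on its own, and that call and the Cplx1/Cplx2 difference share its counts. For the pairs Sv2a/Sv2c, Bsn/Pclo, Syn1/Syn2 and Unc13a/Unc13b the log2 differences were -0.24, -0.20, -0.08 and 0.09, with adjusted exact permutation p from 0.234 to 0.571. Cadps/Cadps2, Syt4/Syt11 and Rab3a/Rab3c lay within 0.06 of 0. The pairs share the same 12 libraries and are not independent of each other.

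In the smaller comparisons edgeR called none of the 34 genes. In replicates 1 to 4, 0 were called and 5 had an unadjusted p under 0.05 (all genes 7.93%), with a median log2 fold change of -0.00844. In replicates 5 and 6, 0 were called and 4 had an unadjusted p under 0.05 (all genes 7.87%), with a median of -0.026. DESeq2 called 2 of them in the former (Cplx2 and Vamp2) and 1 in the latter (Cplx2). Its calls over all genes were not counted in these comparisons, so no share stands beside those counts. Over all libraries DESeq2 called 332 of all genes, where edgeR called 63. The effect of the knockout was called different between the 2 kinds of control for 0 of 34 genes by edgeR and by DESeq2, with 0 at an unadjusted p under 0.05 in edgeR (all genes 3.41%). These comparisons use few libraries, and a missed threshold does not show equal effects.

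Between the sexes, 0 of the 34 genes were called (all genes 0.108%, 0.0301% higher and 0.0781% lower in males), and 1 had an unadjusted p under 0.05 (all genes 10.2%). That gene was Rims2, with a log2 fold change of -0.14, male against female (edgeR adjusted p = 0.474). The X-linked Syn1 and Syp had values of 0.10 and 0.08. DESeq2 called 0 of the 34 as well, and its share over all genes was not counted.

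Release genes outside the 34 were not called either. Of 106 further genes tested in 6 lists of SNARE regulators, synaptotagmins, vesicle proteins, active zone, endocytosis and dense-core vesicle genes, 0 were called higher and 0 lower, against 0.379% of all genes called, and 15 (14.2%) had an unadjusted p under 0.05, against 10.9% of all genes. Their median log2 fold change was -0.0135. Among SNARE regulators (17 tested), the adaptor gene Napg had a value of 0.07. Rph3a, a Rab3 effector that binds calcium, averaged 391.7 ± 46.9 and 308 ± 29.0 CPM in control and iKO libraries (-0.34, edgeR adjusted p = 0.116), and Syt5 had -0.19. Of 20 vesicle proteins and transporters, Rab27b had -0.22 and the proton pump subunit Atp6v0c 0.18. Among 18 active zone genes, Rims3, a short RIM, averaged 268 against 224 CPM (-0.24, edgeR adjusted p = 0.128), and Lin7a had 0.20. Of 24 endocytosis genes, Pacsin1 had -0.21 and Amph 0.12. In the 14 dense-core vesicle genes, the granin Scg2 averaged 213 and 177 CPM (-0.28, edgeR adjusted p = 0.0526), and Resp18 had 0.24 (edgeR adjusted p = 0.0823).

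Markers of neurons and of other cells are given beside the release genes, whose cells of origin bulk libraries do not show. Of 13 pan-neuronal genes 1, not named here, was called lower and 0 were called higher, and the list's median log2 fold change was -0.0205. Of 12 nociceptor genes 1 was called, the neuropeptide gene Calcb, which was higher (0.63, edgeR adjusted p = 0.00166), while the list's median was -0.206. Of 10 genes of large myelinated neurons 0 were called, with a median of 0.057, and Ntrk3, the neurotrophin-3 receptor, had 0.36 without overlap between groups (edgeR adjusted p = 0.0631) and Necab2 -0.34. Of 5 Schwann cell genes 1 was called, Pmp22, which was higher (0.36, edgeR adjusted p = 0.018), and the list's median was 0.169. Of 4 satellite glia and 6 fibroblast and meningeal genes 0 were called (medians -0.186 and -0.201), with Kcnj10 at -0.41, Ptgds at -0.98 and Aldh1a2 at -0.82. The 6 oligodendrocyte and astrocyte, 5 tested pituitary and 7 skeletal muscle genes had 0 calls and medians of -1.06, 0.03 and 1.19, with Aldh1l1 at -0.39, Gfap at -0.96, Cga at 0.99, Pomc at 0.74, Myh4 at 3.34 and Actn3 at 1.30. Whether the balance of neuron types moved the paralog ratios was not tested.

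Spread between libraries affects how small a change could be called, and the test estimated it from all 12 libraries. The median SE of the log2 fold change was 0.0699 for the 34 genes and 0.0871 for all genes tested, which include more genes of low level. For the 32 with at least 10 CPM, the median coefficient of variation across controls was 9.17%, against 7.48% over 10516 genes of that level.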

How the data were processed

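Bulk polyA RNA-seq of 12 trigeminal ganglion libraries was analysed. Each library has 1 table of raw counts per gene, deposited without normalization by the authors. Alignment and counting used STAR 2.7.8a, featureCounts 2.0.1 and build GRCm39 after bcl2fastq 2.20.0.422, per the submitters' processing notes. The kit did not mark strand, per the labels' protocols. The annotation and the counting options were not given in these sources.

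Symbols for 52083 of 55416 identifiers, exon lengths, GC content and exon overlaps came from tables of an older build, GRCm38, and were matched by identifier. Genes without a symbol held 0.274% of counts. A count of 0 allows up to 0.124 CPM in the deepest and 0.227 CPM in the shallowest library (3 counts; counting error only). Libraries of one group differed by more than sampling noise (chi-square per degree of freedom 7.16 to 26.2 over 30 pairs), so none was counted as a repeat.

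The test was edgeR 4.0.16 (R 4.3.3): filterByExpr by group (16637 genes), TMM scaling, the quasi-likelihood test with sex as a covariate, and Benjamini-Hochberg adjustment over all genes tested at 0.05. Replicates 1 to 4 and 5 and 6 were contrasts in a fit over all 12 libraries. Paralog ratios used counts plus 0.5 and exact permutation tests. Labels give no pairing of replicate numbers, and same-numbered libraries deviated with correlations from -0.407 to 0.287, so no block was used. Code was tested on simulated data, where the comparison of all libraries recovered 13.4% of 1.25-fold and 55.2% of 1.5-fold changes.

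Alternatives were DESeq2 1.42.0, limma 3.58.1 (voom), other scalings and filters, no sex covariate, a replicate block, sva 3.50.0 with 1 surrogate variable, each library left out and, added after the data were seen, GC offsets and 2 sets of libraries left out. Genes were named by rule: every member, with library values for called members, the 8 smallest p and called paralog pairs; of other lists, called genes or else the 2 smallest p. Sv2a/Sv2b, Camk2a, Neurod6, Gabra6 and Lhb were also given after their values were seen. The members and lists were chosen with earlier results of these data known. Of 191 list entries, 2 matched no single symbol. Some genes that the rule names are not reported here.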

Additional observations from a re-analysis of the deposited data

Results flagged for a closer look

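In 6 of the 92 groups of 6 libraries checked, one library stood apart from the others by Dixon's gap criterion at 95%, and chance alone marks about 1 group in 20. Rab3a measured 434 CPM in iKO 4, with the other iKO libraries between 298 and 325. Vamp2 measured 306 CPM in iKO 4, with the others between 251 and 267. The count ratio of Unc13a over Unc13b was 4.79 in iKO 4, with the others between 3.35 and 3.6. Stx1a measured 26.9 CPM in iKO 2, with the others between 32.0 and 34.6. The count ratio of Syn1 over Syn2 was 1.46 in iKO 2, the library with the lowest relative level of GC-rich genes (-0.443), with the others between 1.69 and 1.8. Syt1 measured 194 CPM in control 6, the library with the most glial marker signal (2241 CPM), with the other controls between 228 and 241. The part of base composition and of glial RNA in these values was not tested.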

How the results depend on the processing

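Cplx2 was called in 19 of 24 alternatives, with log2 fold changes from -0.52 to -0.43, and the 34 release genes had a median between -0.0684 and 0.00965. The count of these genes called over all libraries, 1, was 3 with DESeq2 and 3 with 1 surrogate variable (Cplx2, Vamp2 and Rims2 in both), and 0 to 2 with 1 library left out. In replicates 1 to 4 the count of 0 became 2 without the filter and 2 with DESeq2 (Cplx2 and Vamp2 in both). In replicates 5 and 6 it became 2 without the filter (Cplx2 and Sv2a) and 1 with DESeq2. For those settings, the calls over all genes in these smaller comparisons were not counted. Over all genes, the 63 calls became 138 without the filter, 332 with DESeq2, 189 with 1 surrogate variable, 157 with GC offsets, 24 without control 1 and iKO 2, and 23 to 88 with 1 library left out. With the replicate number as a block, edgeR called 34 genes, among them Cplx2 (-0.465, adjusted p = 0.0151), and a sign-flip test of the paralog ratios within 6 pairs called 0 of 12, its smallest adjusted exact p being 0.0938. No control correlated best with the iKO of its own number. The 4 paralog pairs called became 0 in replicates 1 to 4 alone, where the smallest adjusted exact p was 0.114, 2 without control 6, iKO 3 and iKO 5, and 3 to 6 with 1 library left out. With so few libraries, the sign-flip test and that of replicates 1 to 4 can pass only if most of the 12 pairs reach the smallest exact p, so those losses say nothing of stability. Rab3a/Rab3c turned from -0.05 to 0.0161 with GC offsets, and Syt4/Syt11, at -0.04, lay between -0.0712 (without control 3) and 0.00249 (without control 1) with 1 library left out. The cause of these changes was not tested. Depth limits Doc2b and Syn3, and 6 libraries a group limit the detection of small changes.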
